A study of Mus musculus with 24 samples.

Results

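The 10 genes described here code for the smooth muscle type actin-binding proteins and the myosin machinery that goes with them: Tagln, Tagln2, Cnn1, Cnn2, Cnn3, Myl9, Cald1, Lmod1, Mylk and Myocd. They were chosen by name, and a gene's level was the sum of TPM (a length-corrected share of a library's transcripts) over the assembled transcripts that carry its reference name, out of 35200 named genes. A named transcript was found in at least 1 library for 9 of the 10, all but Myocd, and 8 passed the filter of at least 1 TPM in at least 2 libraries and were tested, which left out Cnn1 as well. The cells were C3H 10T1/2 fibroblasts, a mouse embryo line that MyoD can turn toward skeletal muscle, as wild type and as 2 LncMyoD knockout lines, clone 1 and clone 2, each a single clone. LncMyoD is a long noncoding RNA encoded near the Myod1 gene. Each of the 3 lines was left without treatment, given a MyoD adenovirus, given a plasmid with LncMyoD, or given both, which made 12 groups of 2 libraries and 24 libraries in all. All lines share the C3H strain and were grown in fetal bovine serum, and the medium was changed to horse serum once MyoD had induced transdifferentiation, so virus and medium cannot be told apart. No group with an empty virus or an empty plasmid was analysed here. The labels do not say that the 2 libraries of a group came from separate cultures, so the error behind each p-value is the spread among these libraries and may be technical.

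Transgelin (Tagln, also called SM22) and the calponins (Cnn1, Cnn2, Cnn3) bind actin filaments through a shared type of domain. Caldesmon (Cald1) ties actin to tropomyosin and myosin, leiomodin 1 (Lmod1) starts new actin filaments, Myl9 is a regulatory light chain of smooth muscle and nonmuscle myosin, and Mylk is the kinase that switches that light chain on. Myocardin (Myocd) is a coactivator of serum response factor, which binds the CArG box in front of many of these genes. Calponin 1 and heavy caldesmon mark differentiated smooth muscle, whereas Tagln2, Cnn2, Cnn3 and light caldesmon are made in many cells, fibroblasts among them.

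The labels were checked first. Myod1 was at 0 to 3.76 TPM in the 12 libraries without the virus and at 930 to 3735 TPM in the 12 with it, and was lower with virus in clone 2 (930 to 1222 TPM) than in wild type (3301 to 3735 TPM). Spliced unnamed minus-strand transcripts within 60 kb before Myod1, where LncMyoD lies, were present in 12 of 12 libraries given the plasmid (2.64 to 53.3 TPM) and in 1 of the 12 others (0.692 TPM), so the locus checks the plasmid labels and not the knockout. Depth, taken from the ratio of coverage to FPKM, was 2.43 to 5.93 gigabases of aligned sequence. The lines differed in RNA makeup: a stretch of ribosomal type on chromosome 17 (39843013 to 39848788, build mm10) held 55.6% to 69.2% of TPM for wild type and 36.8% to 70.0% for clone 1, but 2.68% to 7.90% for clone 2. Mitochondrial transcripts took 2.06% to 3.84%, 1.32% to 2.20% and 7.91% to 14.0% of TPM in the same order, and 5446 to 6964, 4274 to 5758 and 10412 to 13245 genes reached 1 TPM. TPM is a share, so every level in clone 2 has to be read against this. Fibroblast markers were detected in every line (8 of 8, with sums of 338 to 480 TPM for wild type libraries, 196 to 249.8 for clone 1 and 4630 to 15698 for clone 2), and none of 4 epithelial markers was listed in any library. Myh11, the smooth muscle myosin heavy chain, had no named transcript in any of the 24 libraries. The other 4 of 5 smooth muscle markers outside the group were detected in every line, and the list summed to 91.1 to 143 TPM for wild type libraries, 41.2 to 79.0 for clone 1 and 549 to 781 for clone 2.

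The CArG box was found in the promoter windows of Myl9 and Cnn2. The stretches below are shown because serum response factor acts through this element and because Myl9, Cnn2 and Cnn3 had the 3 highest medians in wild type. They come from RefSeq (build GRCm38.p6), cover up to 250 bases before the RefSeq start, are cut before the annotated gene, and have the CArG box in capitals.
Myl9 (chr2:156775214-156775419, plus strand): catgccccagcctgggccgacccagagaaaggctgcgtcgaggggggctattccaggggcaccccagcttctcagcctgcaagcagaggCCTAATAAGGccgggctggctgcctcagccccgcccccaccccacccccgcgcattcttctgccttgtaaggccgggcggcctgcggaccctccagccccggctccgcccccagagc
Cnn2 (chr10:79988350-79988583, plus strand): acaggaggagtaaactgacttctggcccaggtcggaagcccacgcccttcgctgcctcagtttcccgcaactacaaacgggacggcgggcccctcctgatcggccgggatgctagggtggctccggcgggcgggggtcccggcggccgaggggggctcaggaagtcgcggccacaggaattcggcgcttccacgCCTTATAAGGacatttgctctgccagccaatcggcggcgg
Cnn3 (chr3:121426291-121426496, plus strand): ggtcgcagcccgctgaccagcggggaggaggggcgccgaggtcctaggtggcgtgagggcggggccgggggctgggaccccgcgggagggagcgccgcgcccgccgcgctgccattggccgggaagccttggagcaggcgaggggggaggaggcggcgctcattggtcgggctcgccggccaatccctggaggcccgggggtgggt
A CArG box was searched on both strands as one motif, which reads the same on either. It lay 161 bases before the start in Myl9 (CCTAATAAGG) and 56 bases before the start in Cnn2 (CCTTATAAGG), and in none of the windows of Cnn1, Cnn3, Cald1, Lmod1, Mylk and Tagln2. Of 32536 different promoter windows of that length, 1.48% held one. The MyoD-type E-box CAGCTG, also its own reverse complement, was in the window of Lmod1 alone, 45 bases before the start, against 13.1% of all windows. The members with a window numbered 8, and Tagln and Myocd had no entry.

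Among the calponins, Cnn1 was low and Cnn2 and Cnn3 were abundant. Cnn1 (chromosome 9, 22099216 to 22109630) had a named transcript in 3 of 24 libraries, at 0.857 TPM in untreated wild type replicate 2, 0.649 TPM in wild type with MyoD replicate 2 and 0.634 TPM in untreated clone 2 replicate 1, and was listed at 0 in all 8 libraries of clone 1. Unnamed transcripts on its exons held 92.1% of its clone 2 signal, and with them Cnn1 was at 0.634 and 1.01 TPM untreated, 0.737 and 5.66 TPM after the plasmid and 0 in the 4 clone 2 libraries with virus. In that fit Cnn1 was higher in clone 2 than in wild type without MyoD (1.09, limma adjusted p = 0.00448), but not after median-of-ratios scaling as well (0.22, adjusted p = 0.502). Without the clone 2 libraries that lack virus Cnn1 would not have met the filter in that fit, so its call there adds no support. Cnn3 (chromosome 3, 121426497 to 121458207) ranged from 17.7 to 30.8 TPM in the 8 wild type libraries (median 27.7), from 7.62 to 14.7 TPM in clone 1 (median 11.7) and from 588 to 826 TPM in clone 2 (median 653). No library of one line overlapped another line for Cnn3. Cnn2 (chromosome 10, 79988584 to 79996062) ranged from 59.6 to 104 TPM in wild type (median 83.5), 52.0 to 69.6 TPM in clone 1 (median 58.5) and 99.8 to 404 TPM in clone 2 (median 290). Its lowest clone 2 value, untreated replicate 2, was the one library of that line inside the wild type range, and it was 308 TPM when unnamed transcripts lying on Cnn2 exons were added.

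Myl9 and Cald1 were also highest in clone 2. Myl9 (chromosome 2, 156775420 to 156781658) ranged from 13.9 to 22.0 TPM in wild type (median 18.0), 7.07 to 17.4 TPM in clone 1 (median 10.7) and 320 to 458 TPM in clone 2 (median 363). Cald1 (chromosome 6, 34598500 to 34775473) ranged from 7.61 to 15.9 TPM in wild type (median 11.4), 11.1 to 23.3 TPM in clone 1 (median 15.4) and 161 to 285 TPM in clone 2 (median 244). With unnamed transcripts, which held 37.5% of the Cald1 signal in clone 2, the clone 2 median of Cald1 was 429 TPM (13.8 in wild type and 18.1 in clone 1). Wild type and clone 1 overlapped for both genes, and clone 2 stood clear of them. Ranked within a line on TPM, which is per length, Cnn2 had the highest median in wild type and in clone 1, and Cnn3 had it in clone 2, ahead of Myl9 and Cnn2. Across the libraries of a line the ranges of some genes overlapped, so the ranges alone do not order them. In wild type these were Cnn3 and Myl9, Myl9 and Cald1, and Cald1 and Tagln2 (median 9.84). In clone 1 they were Cald1, Cnn3, Myl9 and Tagln2, and in clone 2 Cnn2 overlapped with each of Myl9, Cald1 and Tagln2. Compared within each library on named transcripts, Cnn3 was above Myl9 and Myl9 above Cald1 throughout wild type. Likewise Cald1 was above Tagln2 throughout clone 1, and Cnn2 was above Tagln2 throughout clone 2. The other overlapping pairs changed order between libraries.

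The Cald1 transcripts with most of the named signal coded for the light form in every line. No full heavy form was assembled. The gene has 18 annotated transcripts, of which 11 were listed. Cald1-204, with 536 codons, held 67.8% of the gene's named TPM over all libraries, unnamed transcripts not counted, and Cald1-203, with 530 codons, held 13.7%. Cald1-205, with 768 codons the longest, was listed in 0 of 24 libraries. Coding bases of Cald1-205 that lie in no exon of the other long coding transcripts form 1 stretch of 624 bases (208 codons, chromosome 6, 34746016 to 34746639), and the long form is the one known as heavy caldesmon. No assembled transcript, named or unnamed, covered that stretch in full in any library, and 1 unnamed transcript, in untreated wild type replicate 1 at 0.871 TPM, covered 172 bases of it. Cald1-204 was the larger of both transcripts by median share in each line, at 54.7% of the gene's named TPM in wild type, 64.2% in clone 1 and 73.7% in clone 2, while Cald1-203 was at 29.0%, 25.6% and 5.90%. Their shares ranged widely between libraries (Cald1-203 from 1.23% to 38.3% within clone 2), and their annotated starts differ (34709442 for Cald1-203 and 34598565 for Cald1-204). In untreated clone 2 replicate 1 an unnamed transcript from 34709490 to 34753588, near the Cald1-203 start, held 157 TPM, against 19.5 TPM for Cald1-203. In clone 2 replicate 2 with MyoD no unnamed transcript with those ends was listed, and Cald1-203 held 69.9 TPM. The clone 2 shares thus depend on which transcripts carried the reference name, and a shift between starts was not tested. For Cnn3, Cnn3-201 (330 codons) held 74.7% of the gene's TPM and the retained intron transcript Cnn3-207 held 25.0%, with a median share for the latter of 5.21% in wild type, 1.77% in clone 1 and 27.3% in clone 2.

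The transgelins split into a low and a moderate gene. Tagln (chromosome 9, 45929619 to 45936058, minus strand) ranged from 0.378 to 2.19 TPM in wild type (median 1.22), and was listed at 0 in 6 of the 8 clone 1 libraries, with 0.222 and 0.276 TPM in the others, both of which had the plasmid. In those 2 libraries the signal was not from the main coding transcript, Tagln-201, which was listed in none of the 8 clone 1 libraries. Unnamed transcripts held 58.3% of the Tagln signal in clone 1 and put its untreated replicate 1 at 0.696 TPM. In clone 2 Tagln ranged from 0 to 9.83 TPM (median 3.50). Tagln2 (chromosome 1, 172500047 to 172507380) ranged from 7.27 to 13.7 TPM in wild type, 2.67 to 11.7 TPM in clone 1 and 32.9 to 100.0 TPM in clone 2. Much of the Tagln2 signal was in unnamed assembled transcripts (46.2% in wild type, 22.8% in clone 1 and 48.5% in clone 2), and with these its range was 14.0 to 23.4 TPM for wild type libraries, 6.67 to 12.7 for those of clone 1, and 119 to 178 for those of clone 2.

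Lmod1, Mylk and Myocd were low. Lmod1 (chromosome 1, 135324807 to 135368065) was at 0 to 0.960 TPM in wild type, 0 to 1.15 TPM in clone 1 and 4.50 to 8.47 TPM in 7 clone 2 libraries. The remaining clone 2 library, replicate 1 with both agents, listed it at 0 but held 14.0 TPM in unnamed transcripts on its exons. Mylk (chromosome 16, 34745210 to 35002420) reached at most 0.965 TPM in any wild type library and 1.37 TPM in any of clone 1, with a low of 0 in both lines, and spanned 0.135 to 3.68 TPM in clone 2. The full-length kinase transcript Mylk-201, with 1950 codons, was listed in 0 of 24 libraries. The named signal came from Mylk-202, a retained intron transcript with 64.3% of it, and from Mylk-203, a transcript of 159 codons at the gene's 3′ end (34994807 to 35001363) with 34.5%. Unnamed transcripts over Mylk exons held 96.2%, 86.6% and 88.2% of the gene's signal in wild type, clone 1 and clone 2, and the sum for Mylk was then 2.27 to 8.55 TPM among wild type libraries, 1.45 to 8.25 among those of clone 1, and 9.94 to 19.1 among those of clone 2. Named values of Mylk therefore describe a small part of the gene. None of the 6 annotated Myocd transcripts was listed anywhere, and unnamed transcripts on its exons gave at most 2.79 TPM, in 5 wild type, 3 clone 1 and 2 clone 2 libraries.

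**Figure D1:**
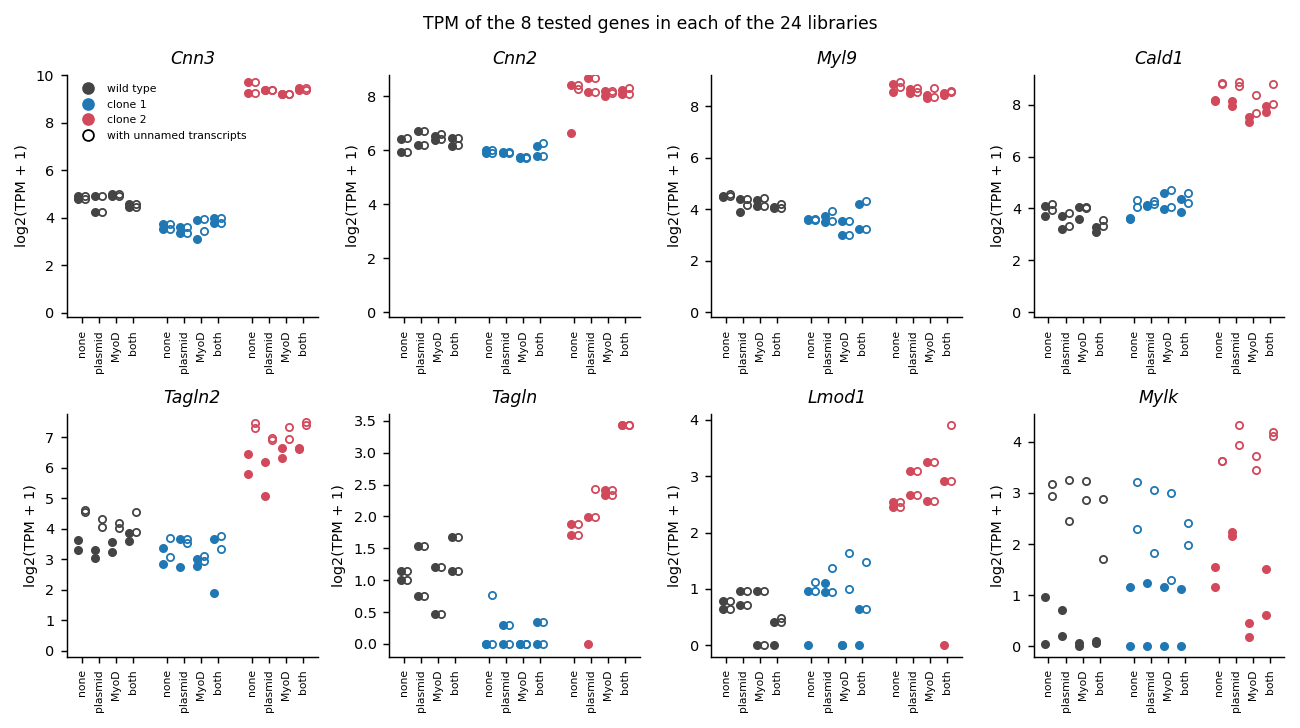
Level of each tested gene as log2(TPM + 1) on the y axis against treatment on the x axis, 1 filled point per library in wild type (grey), clone 1 (blue) and clone 2 (red), with open points after unnamed transcripts on the gene's exons were added. Clone 2 stands above both other lines for Cnn3, Myl9 and Cald1 in all libraries, and adding unnamed transcripts lifts Mylk in every line and Tagln2 most in clone 2.

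The distance of clone 2 from wild type without MyoD depended on the scale for every gene, and for Cnn3, Myl9 and Cald1 the direction and the call held on each of the 4 scales plotted. Cnn3 was at 613, 826, 667 and 654 TPM in the clone 2 libraries without virus. The matching wild type libraries held 26.6, 29.0, 28.7 and 17.7 TPM. Myl9 was at 375, 458, 399 and 363 TPM against 22.0, 21.3, 20.2 and 13.9 TPM, so neither gene's groups overlapped. On deposited TPM, 7 of 8 were higher in clone 2: Cnn3 by 4.72 ± 0.186 (log2 change on TPM + 1, with its SE; limma adjusted p = 4.27e-12), Cald1 by 4.42 ± 0.193, Myl9 by 4.31 ± 0.201, Tagln2 by 2.55 ± 0.350, Lmod1 by 1.91 ± 0.465, Cnn2 by 1.67 ± 0.277 and Mylk by 1.29 ± 0.383. Tagln, at 2.26, 2.70, 2.97 and 0 TPM against 1.22, 1.01, 1.88 and 0.683 TPM, did not pass (0.29 ± 0.342, limma adjusted p = 0.474). Without its clone 2 libraries Lmod1 would not have met the filter on named transcripts, so its call here adds no support. In this comparison 63.8% of the 16680 genes tested were called, 61.9% higher and 1.84% lower, and the median gene moved by 1.72, so most genes were called higher on this scale. Dividing by median-of-ratios size factors (set by 5089 genes above 0 in all libraries) brought the median gene to 0.16 and the split of called genes from 10328 higher and 307 lower to 3513 higher and 1770 lower. On that scale Cnn3 (1.48), Cald1 (1.22) and Myl9 (1.08) were higher in clone 2, Cnn2 (-1.56) and Tagln (-1.11) were lower, and Tagln2 (-0.54), Lmod1 (-0.17) and Mylk (-0.20) did not pass. With ribosomal and mitochondrial transcripts left out of TPM, Cnn3 (3.34), Cald1 (3.08), Myl9 (2.94) and Tagln2 (1.23) were higher in clone 2 and Cnn2 (0.25) did not pass.

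**Figure D2:**
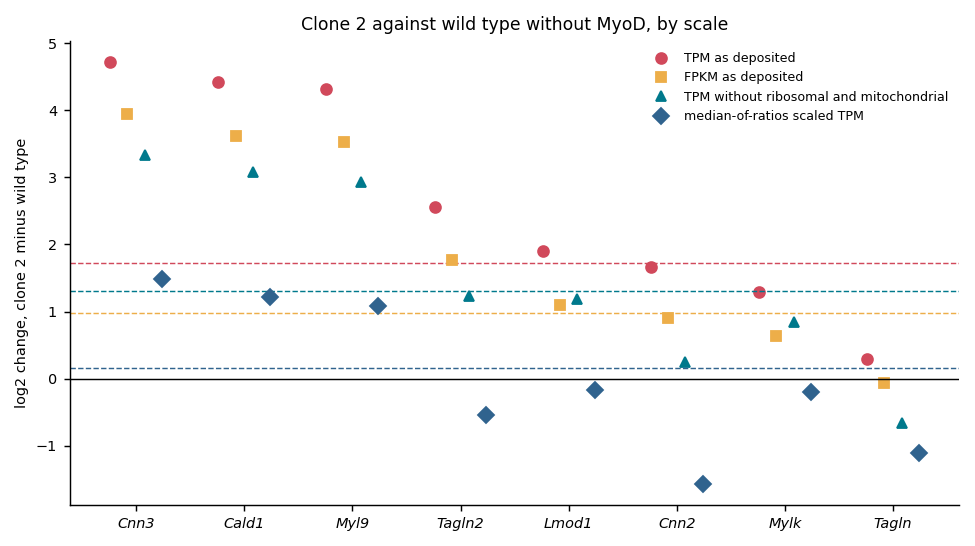
Log2 change of clone 2 against wild type without MyoD (y axis) for 8 genes (x axis) on 4 scales, with a dashed line in the matching colour for the median of all genes tested. Cnn3, Cald1 and Myl9 lie above their median line on each scale, and Cnn2 and Tagln lie below theirs on each scale.

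The ratio of a pair of genes within a library does not move with the scale, and the balance among these genes differed between lines. The Cnn3 to Cnn2 ratio of TPM had a median of 0.307 in wild type (0.244 to 0.486), 0.199 in clone 1 (0.146 to 0.257) and 2.26 in clone 2 (1.65 to 8.28), so clone 2 was 2.98 log2 units above wild type (two-sided exact permutation test, 8 against 8 libraries, p = 0.000155, the smallest this design gives, adjusted over 8 tests 0.000414). The same ratio was 0.72 log2 units lower in clone 1 than in wild type (log2 difference -0.72, exact p = 0.000311, adjusted 0.000622). Myl9 to Cnn2 had a median of 0.205 in wild type and 1.19 in clone 2 (log2 difference 2.64, adjusted exact p = 0.000414) and was 0.182 in clone 1 (adjusted exact p = 0.0732). Cald1 to Cnn2 had a median of 0.128 in wild type, 0.767 in clone 2 (log2 difference 2.68, adjusted exact p = 0.000414) and 0.270 in clone 1 (log2 difference 0.93, adjusted exact p = 0.00323). Clone 1 thus differed from wild type in opposite directions for Cnn3 and Cald1 relative to Cnn2. Tagln2 to Cnn2 was 0.132 in wild type and 0.297 in clone 2 (log2 difference 1.18, adjusted exact p = 0.00580), and 0.121 in clone 1 (-0.07, adjusted exact p = 0.807). With unnamed transcripts added the clone 2 differences were 2.78, 2.47, 2.93 and 1.10 in that order of genes, and the Tagln2 ratio was lower in clone 1 (-0.49, adjusted exact p = 0.00568). The highest clone 2 ratio of each gene came from untreated replicate 2, where named Cnn2 was low. These ratios pool the 4 treatments within a line, and the test was chosen after the levels were seen. The 8 libraries of a line were permuted as if exchangeable, so p measures neither spread between clones nor spread between cultures. Clone 2 had already been seen to stand clear for Cnn3, Myl9 and Cald1, so these p-values are no independent support.

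**Figure D3:**
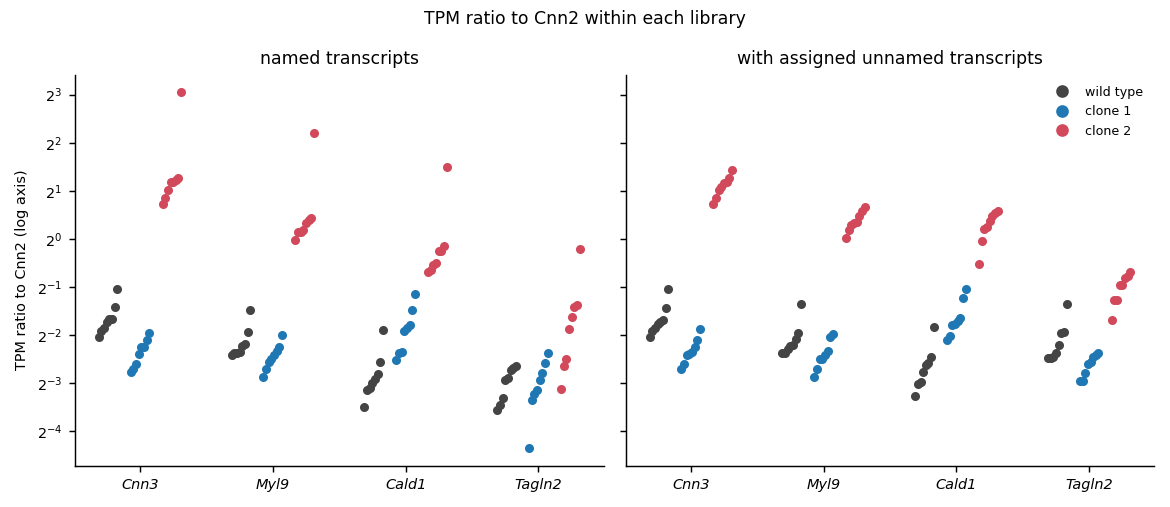
TPM of Cnn3, Myl9, Cald1 and Tagln2 divided by TPM of Cnn2 in the same library (y axis, log axis, powers of 2), 8 libraries per line sorted by value, from named transcripts on the left and with unnamed transcripts on the right. All 8 clone 2 libraries lie above all wild type libraries for Cnn3, Myl9 and Cald1 in both panels.

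Between clone 1 and wild type without MyoD, Cnn3 was lower in the clone. It was at 12.3 and 10.5 TPM without treatment and 11.0 and 9.25 TPM after the plasmid alone, against 26.6, 29.0, 28.7 and 17.7 TPM in the matching wild type libraries, with no overlap (log2 change -1.15 ± 0.186, limma adjusted p = 0.00165). It was the 1 member called of 8, where 4.15% of all genes were called, 4% lower and 0.156% higher; the split of 26 higher and 667 lower became 114 and 310 on the median-of-ratios scale. The call held in 16 of 20 alternatives and was lost, among others, without wild type plasmid replicate 1 (-0.98) and with median-of-ratios scaling (-0.60); Cnn3 was lower in all 20 (-1.32 to -0.60, adjusted p 0.000426 to 0.0823). Myl9 had an adjusted p of 0.0474 but a log2 change of -0.72, under the limit of 1, and its groups did not overlap. Tagln, listed at 0 in 3 of the 4 clone 1 libraries and with no overlap on named transcripts, was at -1.04 (limma adjusted p = 0.0986, with 0.0144 to 0.632 over the 20 alternatives), and it was called lower under 3 of them. With unnamed transcripts its groups overlap, since untreated clone 1 replicate 1 held 0.696 TPM and wild type plasmid replicate 2 held 0.683 TPM. Cald1, at 0.20 (adjusted p = 0.827), did not pass.

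With MyoD, 1 of these genes passed the test, in 1 line. In wild type none of the 8 was called (limma, all 8 at adjusted p = 1; 0.15% of all genes were called, 0.132% higher, and 644 had an unadjusted p under 0.05), and the member changes ran from -0.43 for Lmod1 to 0.24 for Tagln2, with a median of -0.07. In clone 1 none was called either (0.0959% of all genes; 924 at an unadjusted p under 0.05), and the changes had a median of -0.06. The MyoD response of clone 1 minus that of wild type had no member called (0.012% of all genes; 712 at an unadjusted p under 0.05). The 9 skeletal muscle markers summed to 0 TPM without virus and 23.6 to 28.8 TPM with it in wild type. In clone 1 they summed to 0 without virus and 0.0196 to 7.09 TPM with it, and in clone 2 to 2.50 to 5.49 TPM and 388 to 878 TPM. The 95% intervals of the wild type changes for Cnn3 (-0.36 to 0.43), Myl9 (-0.60 to 0.25) and Cald1 (-0.57 to 0.25) exclude a doubling or a halving of TPM + 1.

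In clone 2 Tagln rose with MyoD. Untreated libraries held 2.26 and 2.70 TPM and plasmid libraries 2.97 and 0 TPM, while MyoD libraries held 4.33 and 4.03 TPM and those with both agents 9.81 and 9.83 TPM. On named transcripts the 4 libraries with virus were all above the 4 without. The log2 change was 1.51 ± 0.342 (limma adjusted p = 0.00442), against a median of -0.33 for all genes, and 1.54% of all genes were called higher, 17.3% lower and 18.9% in either direction. That split, 257 higher and 2892 lower, was 842 and 1311 on FPKM and 293 and 394 on the median-of-ratios scale, where the Tagln change was 0.94 (adjusted p = 0.0534) and not called. The size leaned on the plasmid groups: it was 0.57 (adjusted p = 0.482) between groups without the plasmid and 2.44 (adjusted p = 0.00317) between groups with it. The plasmid library at 0 held 4.38 TPM of Tagln in an unnamed transcript, which is above both libraries with MyoD alone, so with unnamed transcripts the groups overlap. Without that library the change was 1.01 (adjusted p = 0.0115), and with unnamed transcripts counted it was 0.90, under the limit. Over 20 alternatives the change ran from 0.57 to 2.45, it was called in 14, and adjusted p ran from 8.05e-05 to 0.482. The difference of the MyoD response between clone 2 and wild type was 1.49 ± 0.483 for Tagln and was not called (adjusted p = 0.0577; 0.00200 to 0.573 over 28 alternatives), and no other member was called in this test, where 10.9% of genes were and 4278 had an unadjusted p under 0.05.

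The other 7 tested members did not pass in clone 2. With unnamed transcripts counted, Cnn1 was called lower with MyoD in clone 2 (-1.31, limma adjusted p = 0.00647), but not after median-of-ratios scaling as well (-0.49, adjusted p = 0.234). Cnn1 would not have met the filter in that fit without the clone 2 libraries that lack virus, so this call adds no support. Mylk was at -1.08 ± 0.383 (adjusted p = 0.0505) on named transcripts and at -0.01 with unnamed ones. Cald1 was at 285, 281, 277 and 243 TPM without virus and 161, 184, 244 and 212 TPM with it, a log2 change of -0.45 ± 0.193 (adjusted p = 0.0988) that was 0.01 after median-of-ratios scaling and 0.07 on FPKM. Tagln2 was at 0.69 ± 0.350 (adjusted p = 0.163) and was called on FPKM alone (1.19). Cnn2 (0.16), Cnn3 (-0.12), Myl9 (-0.22) and Lmod1 (-0.51) had 95% intervals that include 0. The genes whose pattern over the 12 group means, each taken minus its line's mean, was most like that of Tagln were Rtp4 (Pearson r = 0.949), Lsm5 (0.949) and Tpd52l1 (0.942), among 5659 candidates. At each point both genes compared share depth and treatment. Tagln group means spanned 1.48 to 9.82 TPM in clone 2 but 0.840 to 1.71 TPM in wild type and 0 to 0.138 TPM in clone 1, so r rests mostly on clone 2. The lowest clone 2 group holds the library listed at 0 with 4.38 TPM in an unnamed transcript.

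**Figure D4:**
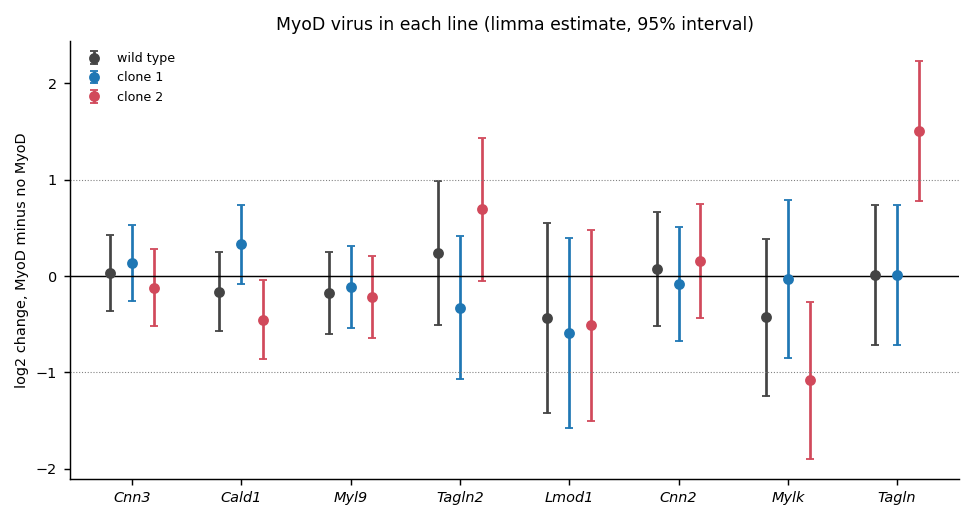
Log2 change with MyoD virus (y axis) for 8 genes (x axis) in wild type (grey), clone 1 (blue) and clone 2 (red), as limma estimates with 95% intervals, and dotted lines at the limit of 1 in either direction. Tagln in clone 2, at 1.51, is the only point that passed the test.

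The LncMyoD plasmid passed the test for none of the 8 tested genes, averaged over the 3 lines. Without MyoD the changes ran from -0.23 for Tagln2 to 0.38 for Cnn2 (limma, all adjusted p = 1; 0.048% of all genes called, 845 at an unadjusted p under 0.05). Added to MyoD they ran from -0.47 for Lmod1 to 0.61 for Tagln (0.27% of all genes called, 1365 at an unadjusted p under 0.05). The Tagln value was 0.61 ± 0.279 with an adjusted p of 0.594, and within clone 2, where it went from 4.33 and 4.03 to 9.81 and 9.83 TPM, it was 1.06 and not called either.

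Genes around this group were read from 4 lists. Of 6 tested smooth muscle markers outside the group (of 10 listed), none was called with MyoD in wild type or clone 1, and 4 fell in clone 2, where 17.3% of all genes were called lower and 1.54% higher, among them Itga8, an integrin subunit, with a log2 change of -2.73, and Actg2, enteric smooth muscle actin, with -2.33. Acta2, smooth muscle actin, was at 0.22 in clone 2 and did not pass. The Itga8 value rests on named transcripts, since with unnamed ones it was 0.043, and none of the list was called after median-of-ratios scaling. Of 17 tested serum response factor and actin genes, Tpm2, a muscle tropomyosin, rose with MyoD in wild type (1.66 ± 0.251, limma adjusted p = 0.00725) and in clone 2 (1.72 ± 0.251, adjusted p = 0.000136). In clone 2 5 of that list fell, led by Flna, filamin A (-3.38), and Myh9, a nonmuscle myosin (-3.04), and 3 fell on the median-of-ratios scale. Of 16 tested genes for control of myosin light chain phosphorylation and for other light chains, 1 rose in clone 2, Ppp1r14b, a phosphatase inhibitor (1.66), and 4 fell, led by the phosphatase subunit Ppp1r12a (-2.41) and the kinase Rock2 (-2.26), which became 2 higher and 0 lower on the median-of-ratios scale. Of 10 TGF-beta genes 3 fell in clone 2, led by the receptor genes Tgfbr1, listed at 0 in all 4 clone 2 libraries with virus against a mean of 8.37 TPM without, and Tgfbr2 (-1.34), and none was called after median-of-ratios scaling. The zeros of Tgfbr1 cover named transcripts alone: with unnamed ones its change was -0.67 and was not called (limma adjusted p = 0.283; 6.95e-06 to 0.969 over 20 alternatives). With unnamed transcripts the 4 lists had 1, 4, 0 and 2 genes lower and 0, 0, 1 and 0 higher for MyoD in clone 2, so Tpm2 was not called there. Over all genes 687 were called for MyoD in clone 2 on the median-of-ratios scale, against 3149 on TPM. Between clone 1 and wild type without MyoD, 1, 4, 0 and 3 genes of the 4 lists were lower and none was higher, against 4% and 0.156% of all genes, led by Smtn, smoothelin (-1.32), the actin Actg1 (-1.59), Tpm2 (-1.47), Smad2 (-1.46) and Tgfbr2 (-1.45). On the median-of-ratios scale these counts were 1, 2, 0 and 1. Between clone 2 and wild type the lists had 4, 10, 13 and 7 genes higher and 0, 1, 0 and 1 lower on TPM, against 61.9% and 1.84% of all genes, which became 1, 1, 8 and 1 higher and 2, 9, 2 and 3 lower on the median-of-ratios scale. Over all genes 5283 were called on that scale, more of them higher than lower. For the plasmid, with or without MyoD, no gene of the lists passed.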

How the data were processed

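RNA was measured in 24 libraries. Per the labels' protocols, full-length cDNA, which keeps no strand information, was made from total RNA and tagmented; the submitters' processing notes name HISAT2 2.1.0 and StringTie 1.3.3, while StringTie 2.1.2 with the GENCODE vM21 guide (mm10) is named per the file headers. The authors deposited TPM, FPKM and coverage per base for each assembled transcript; read numbers behind a value are unknown, and coverage served to estimate depth. TPM was summed per gene over transcripts with a reference name. A gene not listed in a library was set to 0; such a 0 can mean that assembly failed. The filter (1 TPM or more in 2 libraries or more) left 16680 genes, which were fitted with limma 3.58.1 (R 4.3.3, trend) on log2(TPM + 1), with 1 mean for each of 12 groups and 12 residual degrees of freedom. The pseudocount of 1 understates changes of low genes. A call needed a Benjamini-Hochberg adjusted p under 0.05 over all genes together with a log2 change of 1 or more, up or down. The 9 comparisons pool groups with and without the plasmid, or the 3 lines. The fits were tested on simulated data. Unnamed transcripts sharing at least 50% of their exonic length with a gene on the same strand (bedtools 2.31.1) were added as an alternative.

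The genes named are the 10 members, up to 2 called genes per list and comparison with the largest change, and the 3 genes most like a member called for MyoD. Of the lists, 1 gene is not reported here and is left out of their counts. Members and lists were chosen with earlier results of these data known. Other alternatives were FPKM, median-of-ratios scaling, TPM without ribosomal and mitochondrial transcripts, a pseudocount of 0.1, no filter, a filter at 5 TPM, fits on fewer groups, a replicate block and each library left out. Ratios to Cnn2 (SciPy 1.17.1) and scaling together with unnamed transcripts were chosen after seeing the data. Replicate numbers did not pair the libraries (correlation of deviations -0.06 to 0.05 over 66 pairs of groups). Overlapping and antisense genes are uncertain without strand.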

Additional observations from a re-analysis of the deposited data

Results flagged for a closer look

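Given here are 6 genes from the lists around the group, at most 2 per list with the largest values, that had a MyoD response that differed between clone 2 and wild type in the limma test of the difference itself. Itga8 differed by -2.96 (adjusted p = 0.00412), Flna by -3.71 (0.00921), Vcl, the focal adhesion protein vinculin, by -2.23 (0.000383), Rock1 by -1.54 (0.00620) and Tgfbr1 by -3.03 (0.000815), each lower in clone 2. Ppp1r14b differed by 1.81 (0.00552), higher in clone 2. The test called 10.9% of all genes, and the median gene differed by -0.35. On the median-of-ratios scale Vcl (-1.63), Flna (-2.97) and Ppp1r14b (1.99) were called, and Itga8 (-1.52), Rock1 (-0.76) and Tgfbr1 (-1.02) were not. With unnamed transcripts Vcl (-2.14), Flna (-1.77) and Ppp1r14b (1.57) were called, and Itga8 (0.66), Rock1 (-0.074) and Tgfbr1 (-0.64) were not. Vcl was called in all 28 alternatives run, with adjusted p between 0.000114 and 0.0173. None of the 8 tested members of the group was called in this test.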

How the results depend on the processing

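Clone 2 against wild type without MyoD had 7 members called in each fit that left out a library (7 to 7), 4 with ribosomal and mitochondrial transcripts left out, and reversed directions on the median-of-ratios scale for Tagln (-1.11), Tagln2 (-0.54), Cnn2 (-1.56), Lmod1 (-0.17) and Mylk (-0.20), and with unnamed transcripts and that scaling for Cnn2 (-0.69) and Mylk (-1.49). For MyoD in clone 2, where 1 member was called, the count was 2 on FPKM and 0 on the median-of-ratios scale, with a pseudocount of 0.1, with only the groups compared, with only groups without the plasmid, and with unnamed transcripts and scaling together; leaving out a library gave 1 to 2. With unnamed transcripts it was also 1, but a different gene: Tagln (0.90) was not called and Cnn1 (-1.31) was called lower. The 2 came without clone 2 replicate 1 or 2 with both agents, which added Mylk (-1.31) or Lmod1 (-1.24). The difference of clone 2 from wild type in the MyoD response had 0 members called, 1 on FPKM, 1 with unnamed transcripts (Cnn1, lower by this fit at -1.54, which is not tested on named ones), and 0 to 1 with a library left out (1 without clone 2 plasmid replicate 1, Tagln 1.99). Both Cnn1 calls (-1.31 and -1.54) add no support, since Cnn1 met that filter only with the clone 2 libraries that lack virus. Clone 1 against wild type had 1 called, 2 with ribosomal and mitochondrial transcripts left out or a pseudocount of 0.1, 0 with only groups with the plasmid or with unnamed transcripts and scaling, and 0 to 1 with a library left out. The other 5 comparisons had 0 in every alternative run. Outside the group, values reversed with unnamed transcripts for Itga8 in clone 2 (0.043) and in the difference from wild type (0.66) and for Smad2 in clone 1 (0.36), and with scaling added for Itga8 (0.36 and 1.07), Rock1 (0.41) and Smad2 (0.75). The cause was not tested. Counts of all genes called moved with scale: 3149 for MyoD in clone 2 and 687 on the median-of-ratios scale, 1810 and 334 for its difference from wild type, 693 and 424 for clone 1 and 10635 and 5283 for clone 2 against wild type. For MyoD in wild type the counts were 25 and 39 and in clone 1 16 and 158, for the clone 1 difference 2 and 53, and for the plasmid 8 and 4 without and 45 and 28 with MyoD. The replicate number as a block left the count of members called in each comparison at the same number (for example 1 for MyoD in clone 2 and 7 for clone 2 against wild type), and same-numbered libraries did not deviate together. Read numbers are unknown, so depth limits the low genes Tagln, Lmod1, Mylk and Cnn1 by an unknown amount.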
